A study of Mus musculus with 2 samples.

Results

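Chromosome 8 of the E14 mouse embryonic stem cell genome was followed over all but its distal end in a map of 5-hydroxymethylcytosine. The region comprised the proximal listed cytosines of chromosome 8 in the mm9 build, 741171 of 13025343 listed cytosines, with 11362241 of 176006227 reads. Its first listed cytosine lay at 3004116 and its last at 118999934. The next listed cytosine, at 119000139, was outside it. The region was selected on the reads per CG site, the CH sites and the strand shares of this same table. The values below therefore describe it, and no test was made on them.

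E14 is an established mouse embryonic stem cell line, and both libraries were made from its genomic DNA at passage 12 with no treatment or genotype contrast. For each library, 100 ng of DNA was glucosylated and digested with AbaSI, and the cut ends were captured, amplified over 16 PCR cycles and sequenced on a HiSeq 2000. The 2 libraries were labelled as replicates of 1 group, and nothing in the labels says that they came from separate cultures. The deposited table holds 1 read count per cytosine for both libraries together, so no value below has a replicate error and no p-value could be computed.

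5-Hydroxymethylcytosine is made from 5-methylcytosine by the TET dioxygenases and is abundant in mouse embryonic stem cells, where it lies mainly at CG dinucleotides. AbaSI cuts DNA at a fixed distance from a glucosylated 5-hydroxymethylcytosine, so that a read end locates the modified base. A gain of chromosome 8 is among the best-known karyotype changes of mouse embryonic stem cells in culture. No karyotype of these cells was at hand. A higher share of modified DNA molecules and a higher number of chromosome copies both add reads to a cytosine, and they cannot be told apart in these counts.

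The region was set against 17 autosomes, which are all autosomes except 8 and 11. Chromosome 11 was left out of the comparison because it too carried many reads per cytosine. The region held 6390 listed cytosines and 97953.9 reads per Mb. Its reads per Mb were 1.59 times the median of the 17 chromosomes, which ranged from 0.814 times on chromosome 3 to 1.40 times on chromosome 19. Its cytosines followed by G, called CG sites, carried 16.0 reads on average. The 17 chromosomes had between 12.5 (chromosome 3) and 15.3 reads per CG site (chromosome 2), with a mean of 13.2 ± 0.672 (SD over chromosomes, n = 17). The next highest was chromosome 17 with 13.7. Chromosome 2 held a 1 Mb window at 377 times the depth of windows of like density, and the mean and SD include it. The median CG site of the region carried 11 reads, against 9 to 10 on the other chromosomes. The difference lay across the range of counts. CG sites with at least 20 reads made up 24.9% of the region's CG sites and 16.1% to 19.5% on the 17 chromosomes, and sites with at least 50 reads made up 3.59% against 1.56% to 2.02%.

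The table gives each site a class code, and no source used here explains the codes. The codes 1CG, CGCH and 2CG cover the CG sites. Sites of the class 2CG showed the region's largest excess of reads among these 3 classes. They carried 32.2 reads on average, where the 17 chromosomes had between 23.3 (chromosome 7) and 25.1 (chromosome 17), with a mean of 24.1 ± 0.525 (SD, n = 17). The median 2CG site carried 20 reads against 15 to 17. Sites of the class CGCH carried 15.6 reads against 12.1 to 13.4. Sites of the class 1CG carried 13.5 reads, where chromosome 2 had 16.3 and the other 16 chromosomes 10.6 to 11.7. The median 1CG site carried 10 reads, against 8 to 9 on all 17 chromosomes. While its 2CG sites were deeper, the region held fewer of them. The 49505 sites of this class made up 6.68% of its listed cytosines, below the range of 7.37% to 8.24% on the 17 chromosomes. Chromosome 11 up to position 114999191 had 6.37%, and the rest of chromosome 8 had 7.47%.

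Cytosines followed by A, C or T, together called CH sites, were more frequent in the region than on any of the 17 chromosomes. There were 66491 CH sites, or 8.97% of the listed cytosines (exact Clopper-Pearson 95% interval 8.91 to 9.04). The lowest of the 17 chromosomes was chromosome 10 with 4.21% and the highest chromosome 14 with 7.73%, around a mean of 5.77 ± 0.822% (SD, n = 17). This and all following intervals treat each listed cytosine or dyad as independent and reflect counting error alone. Neighbouring windows were alike in CH sites, as given below, so the intervals are likely too narrow. PCR copies of a molecule could also not be told from separate molecules. The makeup of the CH sites was close to that elsewhere, with CA at 52.0% of them, where the 17 chromosomes had 51.6% to 53.1%. The median CH site carried 6 reads, against 5 to 6 on the other chromosomes.

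A CG dinucleotide carries a cytosine on each strand, and the pair is called a dyad here. The region had 471703 dyads with at least 1 listed cytosine, and 202977 of them, or 43.0% (42.9 to 43.2), were listed on both strands. On the 17 chromosomes this share lay between 33.7% (chromosome 3) and 38.3% (chromosome 19), with a mean of 35.9 ± 1.503% (SD, n = 17). Where both strands were listed, the median strand carried 13 reads, against 11 to 12 on the 17 chromosomes. The counts of both strands of a dyad had a Spearman correlation of 0.271 across these 202977 dyads, against 0.221 to 0.234. The 2 strands of a dyad share their molecules, libraries and depth, so this correlation is a description. The counts differed by more than 3 times in 23.6% of the dyads, against 21.4% to 22.5%.

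These whole-chromosome values depend on how dense the listed sites are. The region was therefore cut into windows of 1 Mb, and 112 of its 115 windows with listed sites had at least 500 CG sites and were used. They held 99.9% of its CG sites. The number of CG sites per window ran from 584 to 14281 with a median of 5152. Reads per CG site ran from 8.03 to 26.7 with a median of 14.9, and the both-strand share from 11.1% to 55.5% with a median of 39.5%. Denser windows were deeper. Across the 112 windows the Spearman correlation of the number of CG sites with reads per CG site was 0.895, and with the both-strand share it was 0.939. Windows share libraries, depth and, between neighbours, sequence makeup, and both measures rise with the number of reads, so these correlations carry no test.

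Each window was then compared with the 20 windows of the 17 chromosomes nearest to it in the number of listed CG sites, taken from 2108 such windows. The gap in CG sites between a window and the median of its match was at most 1.24%. The same comparison was made for every window of each of the 17 chromosomes against the other 16, which gives the background. The number of listed CG sites itself depends on depth, so a window of chromosome 8 was matched to windows that may hold more CG dinucleotides in the genome.

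At matched density, the median window of the region carried 1.15 times the reads per CG site of its matched windows, with quartiles of 1.07 and 1.23. The medians of the 17 chromosomes lay between 0.993 and 1.02. Of the 112 windows, 100 lay above their matched median, against 49.7% of the windows of the other chromosomes. Among them, 61 lay above all 20 of their matched windows, against 4.84%. A ratio of at least 1.2 was found in 33 of 112 windows, or 29.5%, beside 2.37% of the windows of the other chromosomes. That count depended on the minimum number of reads. With CG sites of at least 10 reads alone, 4 of 92 windows reached it, and the median ratio was 1.12. The share of the other chromosomes at that minimum is not given here.

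Sites of the class 2CG again stood farther from their match. In the 109 windows with at least 50 of them, reads per 2CG site ran from 12.7 to 40.3, and the median ratio was 1.27 with quartiles of 1.15 and 1.37. The 17 chromosomes had medians between 0.973 and 1.03. The ratio lay above the matched median in 99 of 109 windows, beside 50.6% elsewhere, and above all 20 matched windows in 64, beside 5.08%. A ratio of at least 1.2 was reached by 72 of 109 windows, or 66.1%, beside 8.2% elsewhere. By class, the median ratio was 1.12 for 1CG and 1.14 for CGCH sites. The number of 2CG sites per window was 0.856 times that of the matched windows, where the 17 chromosomes had medians from 0.964 to 1.05.

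CH sites were 1.56 times as many as in matched windows in the median window, with quartiles of 1.13 and 3.05. The 17 chromosomes had medians from 0.738 on chromosome 10 to 1.205 on chromosome 17. The number lay above the matched median in 92 of 112 windows, beside 49.6% elsewhere, and above all 20 matched windows in 32, beside 4.51%. At least 2 times the matched number was found in 41 of 112 windows, or 36.6%, beside 10.1% elsewhere. By chromosome that background ran from 3.16% on chromosome 16 to 27.4% on chromosome 14. Reads per CH site were near their match in the median window, with a ratio of 1.03. The number of CA sites was 1.57 times, of CC sites 1.48 times and of CT sites 1.54 times the matched number.

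The both-strand share lay a median of 4.002 percentage points above the matched windows, with quartiles of 1.40 and 6.50. The medians of the 17 chromosomes ran from -0.824 to 0.646 points. The share lay above the matched median in 96 of 112 windows, beside 50.1% elsewhere, and above all 20 matched windows in 42, beside 4.93%. An excess of at least 5 points was found in 40 of 112 windows, or 35.7%, beside 4.93% elsewhere. Windows with a high ratio of reads per CG site also had a high excess of both-strand dyads. The Spearman correlation of these measures was 0.905 across the 112 windows, and 0.717 to 0.867 within the 17 chromosomes. Both measures come from the same reads, so the relation is given as a description.

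**Figure D1:**
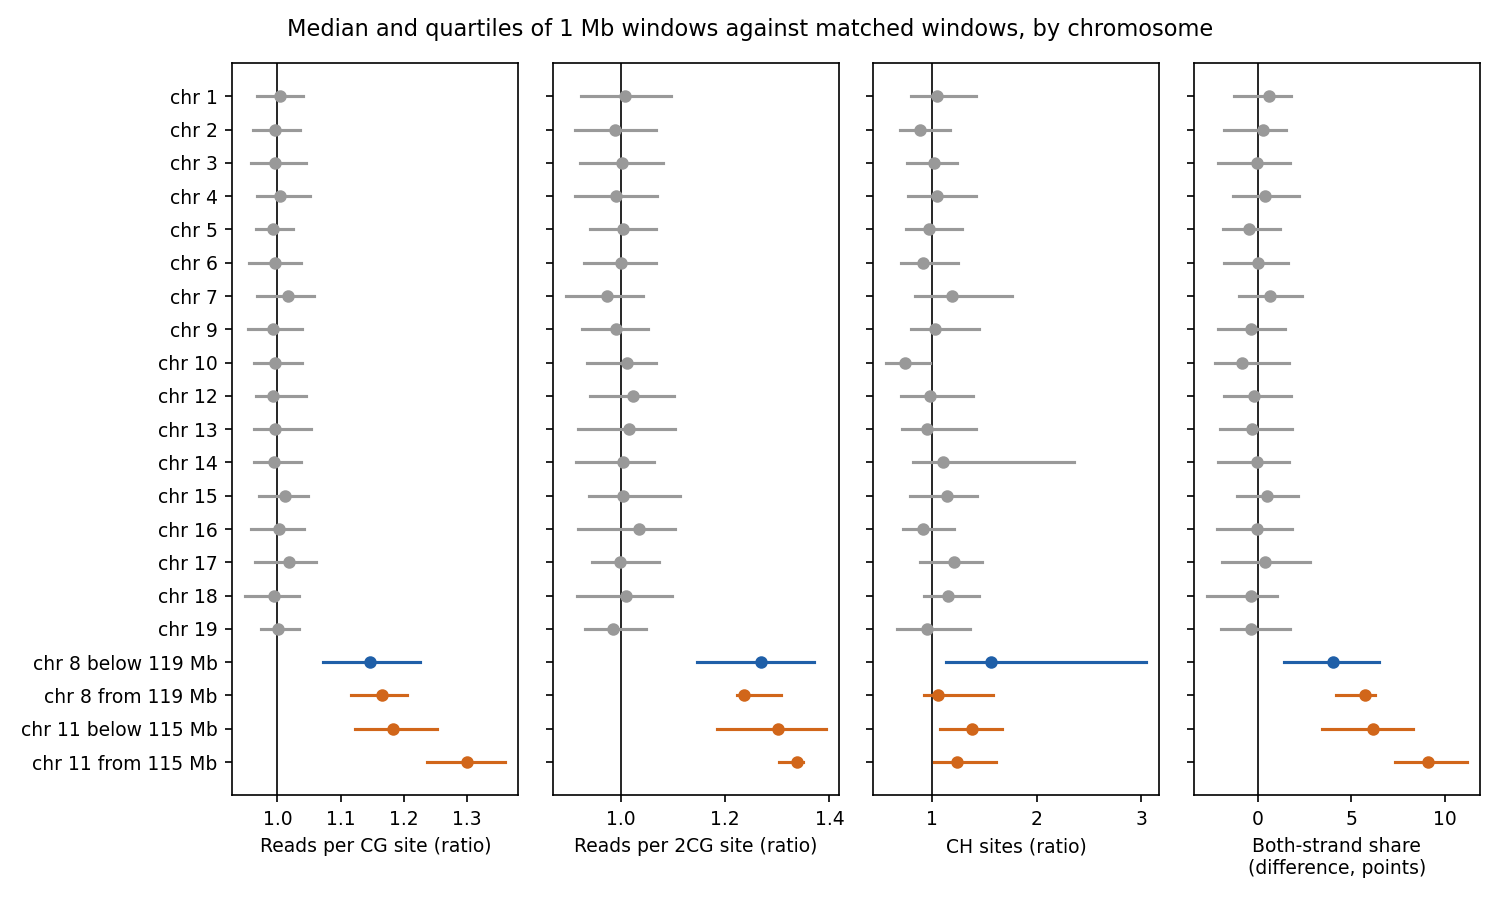
Points are medians over 1 Mb windows and bars run from the lower to the upper quartile, for reads per CG site, reads per 2CG site and CH sites (ratio to matched windows) and for the both-strand share of dyads (difference in percentage points). The median of the chromosome 8 region (blue) lies to the right of the medians of all 17 other autosomes in each panel, at 1.15, 1.27, 1.56 and 4.002, and the remainder of chromosome 8 and the pieces of chromosome 11 are drawn below it in orange.

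The excess of reads was smaller in sparse windows. The 30 windows of the region with 500 to 2000 CG sites had a median ratio of 1.05, and 0 of them reached 1.2, beside 4.98% of the windows of the other chromosomes in this band. The 41 windows with 2000 to 8000 CG sites had a median ratio of 1.16, and 17 of them passed 1.2, beside 1.76%. The 41 windows with at least 8000 CG sites had a median of 1.18, and 16 passed, beside 0.235%. Reads per 2CG site followed the same order, with ratios of 1.11, 1.27 and 1.29. The both-strand excess was 1.33, 4.64 and 4.74 points in the 3 bands. CH sites ran the other way, with ratios of 1.75, 1.55 and 1.36. The lowest listed count in the table was 2, and sparse windows lay closest to it, with a median of 9.67 reads per CG site in the sparsest band against 16.8 in the densest. What part the listing minimum plays in these ratios was not tested.

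**Figure D2:**
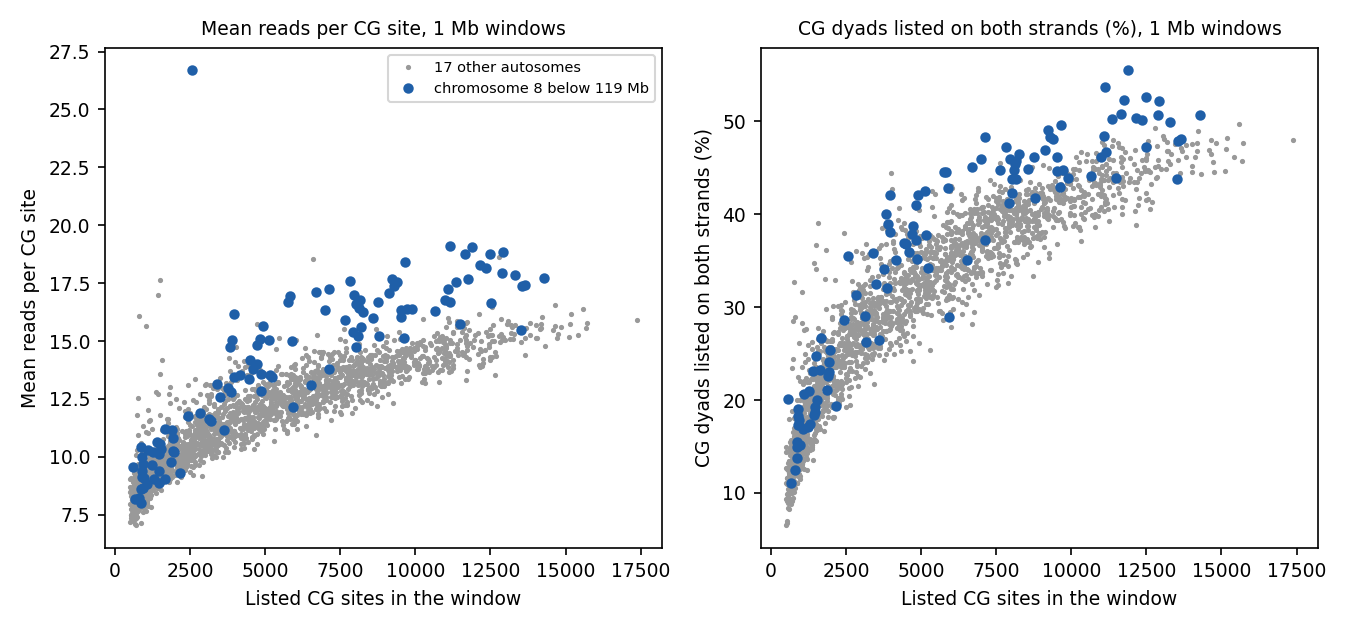
Each point is a 1 Mb window, with its number of listed CG sites against mean reads per CG site (left) and against the share of CG dyads listed on both strands in percent (right), the chromosome 8 region in blue and the 17 other autosomes in grey. Of the 112 blue windows, 100 lie above the median of their matched windows in reads per CG site and 96 in the both-strand share. Blue points near or below their match include sparse windows and the last 4 windows of the region, which are not sparse. The single blue point at 26.7 reads is the window from 19 to 20 Mb. From the grey windows, 4 with 30 or more reads per CG site are left out of both panels.

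Along the chromosome the excess was widespread but uneven. In steps of 5 Mb, reads per CG site were 16.1 from 0 to 5 Mb, 13.9 from 5 to 10 Mb, 16.9 from 10 to 15 Mb and 15.9 from 15 to 20 Mb. They were 16.9, 16.5, 14.3 and 15.5 in the steps from 20 to 40 Mb. The next step, from 40 to 45 Mb, had 13.4 reads, and that from 45 to 50 Mb had 16.5. Reads per CG site then dropped to 10.2 from 50 to 55 Mb, and the next steps, to 65 Mb, had 12.8 and 14.6. Steps from 65 to 80 Mb had 14.04, 16.5 and 14.002 reads. The steps from 80 to 100 Mb, with 16.4, 17.17, 17.04 and 16.5 reads, formed the longest stretch of steps above 16. The lowest step of all followed from 100 to 105 Mb, with 9.52 reads. The remaining steps had 16.95 reads from 105 to 110 Mb, 17.25 from 110 to 115 Mb, the highest of all steps, and 13.9 from there to the end of the region.

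Reads per 2CG site were highest from 80 to 85 Mb, at 36.6, and from 20 to 25 Mb, at 36.3. They were lowest from 50 to 55 Mb, at 18.9, and from 100 to 105 Mb, at 22.3. The both-strand share followed the depth, with 47.5% from 105 to 110 Mb at the top and 16.2% from 100 to 105 Mb at the bottom. The CH share of listed sites followed another course. It was 20.2% from 15 to 20 Mb, 17.9% from 35 to 40 Mb and 18.3% from 40 to 45 Mb, and it was 4.36% from 110 to 115 Mb.

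The comparison was repeated with 23 windows of 5 Mb, set against 445 windows of the 17 chromosomes. In 3 of the 23, from 0 to 5, 20 to 25 and 55 to 60 Mb, listed sites filled only part of the window, with 2, 3 and 3 usable windows of 1 Mb. Such windows are matched to others in which the same number of CG sites is spread more widely. The comparison was therefore also made with the 20 windows of the region, and 380 of the 17 chromosomes, in which all 5 windows of 1 Mb were usable, a choice made after seeing the data. In the 20 windows the median ratio of reads per CG site was 1.2013, and 18 lay above 1.097, the 95th percentile of the other chromosomes. For 2CG sites the median ratio was 1.32, with 18 windows above 1.09. For CH sites it was 1.66, with 7 above 2.27. The both-strand excess had a median of 5.52 points, with 18 windows above 3.72 points. Over all 23 windows the medians were 1.199, 1.303, 1.61 and 5.48 points, and 19, 21, 7 and 8 windows lay above the wider 95th percentiles of 1.16, 1.12, 2.30 and 6.34 points. Among the 20, the highest ratio of reads per CG site was 1.348 from 15 to 20 Mb, which includes the window from 19 to 20 Mb described below, and the lowest was 1.016 from 50 to 55 Mb. From 0 to 5 Mb the ratio was 1.54 for the partly filled window, and 1.36 and 1.26 for its 2 windows of 1 Mb.

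**Figure D3:**
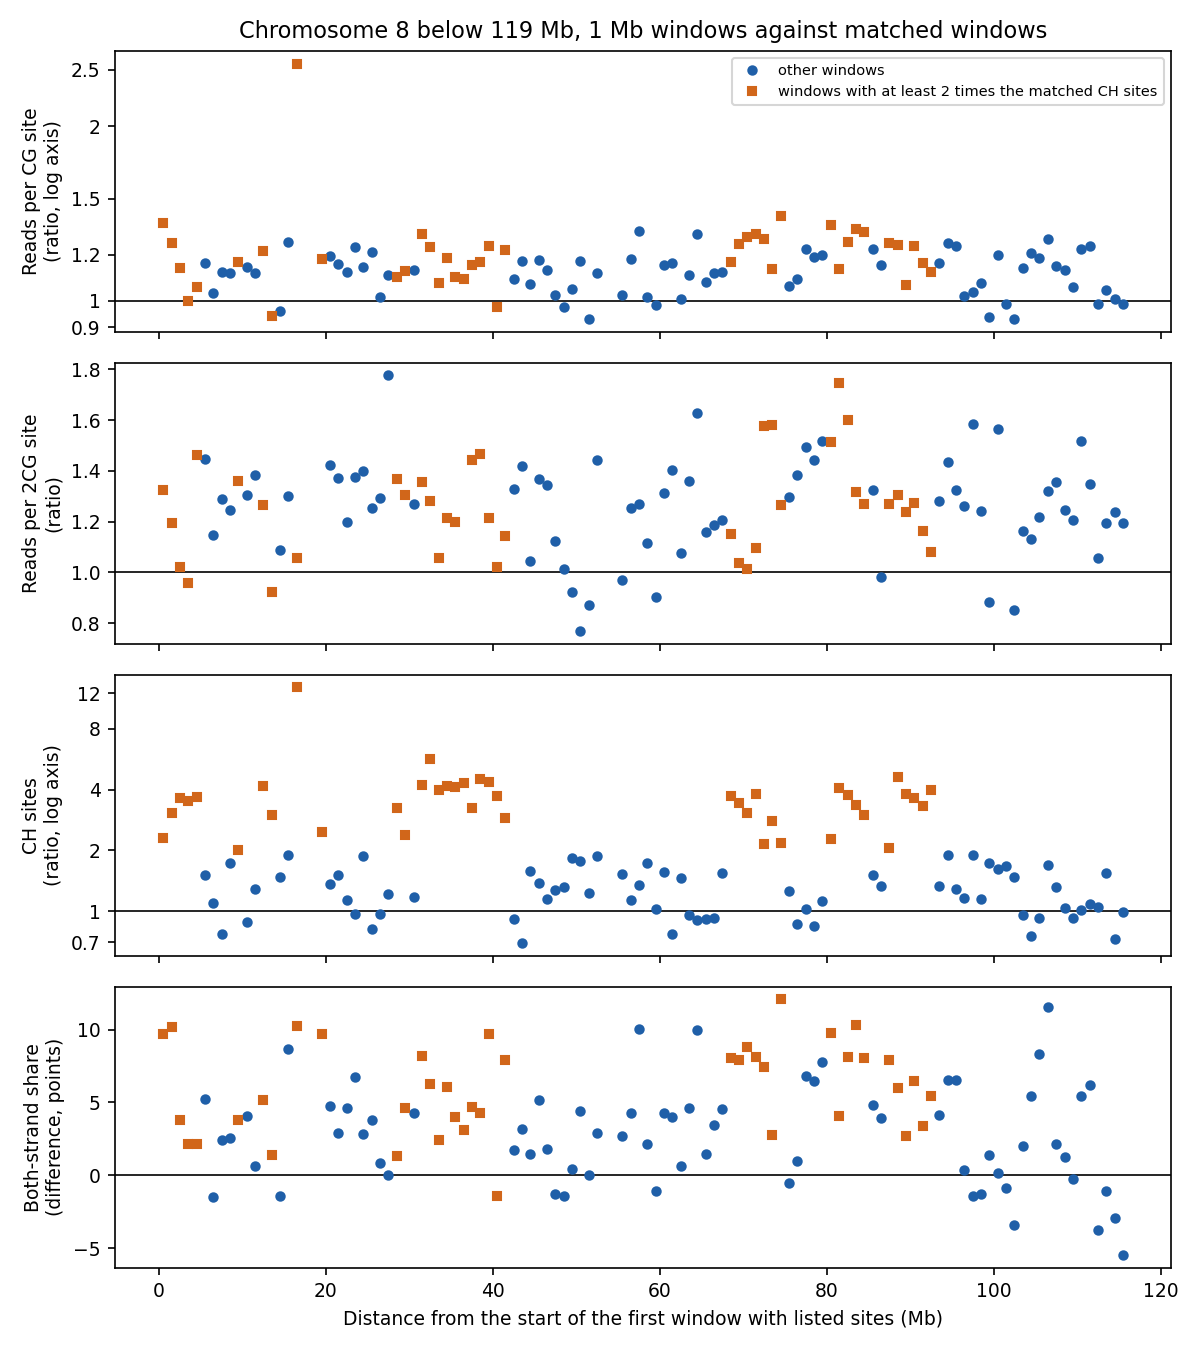
The 112 windows of 1 Mb are drawn in order along chromosome 8, by distance in Mb from the start of the first window with listed sites, with ratios to matched windows (reads per CG site and CH sites on log axes) and the both-strand difference in percentage points, and a line where a window equals its match. Squares mark the 41 windows with at least 2 times the matched CH sites, which group into runs, while the ratio of reads per CG site lies above 1 in windows of both kinds.

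Single windows of 1 Mb varied around these levels. The highest reads per CG site, 26.7, were in the window from 19 to 20 Mb, described below. Next came 86 to 87 Mb with 19.1 reads, where the matched windows had 14.4, and 109 to 110 Mb with 19.05 reads against 14.9. The latter also had the highest both-strand share, 55.5% against 44.0% in its match. The windows from 26 to 27 Mb and from 90 to 91 Mb both had 18.8 reads. Reads per CG site differed by a ratio of 1.40 from the match at 77 to 78 Mb (16.2 against 11.6), where the both-strand excess was the largest of all windows at 12.1 points. Ratios of 1.36 and 1.349 were found at 3 to 4 Mb and at 83 to 84 Mb. The 3 windows with the most CG sites, from 13 to 14, 49 to 50 and 111 to 112 Mb, had ratios of 1.14, 1.13 and 1.13.

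The excess was missing in 12 of the 112 windows, whose ratio was below 1. Elsewhere, 49.7% of the windows of the other chromosomes lay above their matched median. Of the 12 windows of the region, 9 had under 2000 CG sites, as did 30 of all its 112 windows. The lowest reads per CG site were 8.03 from 102 to 103 Mb, 8.18 from 104 to 105 Mb and 8.24 from 43 to 44 Mb, followed by 8.61 from 6 to 7 Mb and 8.67 from 61 to 62 Mb. The lowest ratios were 0.929 from 54 to 55 Mb, 0.932 in the window starting at 105 Mb, 0.939 from 102 to 103 Mb, 0.942 from 16 to 17 Mb and 0.96 from 17 to 18 Mb. The both-strand share was lowest at 104 to 105 Mb, with 11.1%, at 43 to 44 Mb, with 12.5%, and at 103 to 104 Mb, with 13.8%. The 6 windows from 50 to 56 Mb had ratios from 0.929 to 1.17, and the 7 windows starting at 99 to 105 Mb had ratios from 0.932 to 1.198. Both stretches were sparse, with 4 of the 6 and 6 of the 7 windows under 2000 CG sites.

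The last 4 windows of the region also lay near their match, although they were not sparse. They held 3613 to 13511 CG sites, the ratio of reads per CG site ran from 0.986 to 1.04, and the both-strand share lay from 5.46 to 1.09 points below the match. Their 2CG sites still carried 1.06 to 1.24 times the matched reads. The last window of the region, which started at 118 Mb, had 12.2 reads per CG site against 12.3 in its match. The first window beyond the region had 19.2 against 15.6, a ratio of 1.23, with 40.3 reads per 2CG site. The following windows, from 120 to 121 and 121 to 122 Mb, had ratios of 1.06 and 1.08.

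The remainder of chromosome 8 and chromosome 11 up to position 114999191 were the pieces most like the region. The 13 windows of distal chromosome 8 had a median ratio of reads per CG site of 1.16, of 2CG reads of 1.24 and a both-strand excess of 5.72 points. The 112 windows of chromosome 11 had 1.18, 1.301 and 6.17 points. Both also held fewer 2CG sites than their match, with median ratios of 0.868 and 0.806, against 0.856 in the region. The pieces differed most in CH sites, with a median ratio of 1.06 in distal chromosome 8 and 1.38 on chromosome 11, against 1.56 in the region. At least 2 times the matched CH sites were found in 0 of 13 windows of distal chromosome 8 and in 11 of 112 windows of chromosome 11, or 9.82%. The share was 36.6% in the region and 10.1% on the 17 other chromosomes, so chromosome 11 lay near the latter. With 1 pooled table, these differences between pieces were not tested.

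The 41 windows of the region with at least 2 times the matched CH sites, called CH-rich here, lay next to each other. The fold of 2 was chosen after the values along the chromosome were seen. They formed 10 runs, 5 of which spanned at least 3 windows and held 34 of the 41 windows. On the 17 other chromosomes, 212 CH-rich windows formed 94 runs, and 118 of the 212 lay in runs of at least 3, the longest of them 12 windows on chromosome 14. CH-rich windows made up 36.6% of the windows in the region and 10.1% on those chromosomes. A higher share by itself makes longer runs, so the counts of runs cannot be compared directly. The ratio of CH sites in neighbouring windows had a Spearman correlation of 0.598 in the region, inside the range of 0.087 to 0.708 on the 17 chromosomes. For reads per CG site it was 0.219.

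The longest run of the region covered 11 windows from 34 to 45 Mb. It held 10893 CH sites, 18.0% of its listed cytosines, and each window had 2.90 to 5.68 times the matched number, with a median of 4.19. Its reads per CG site were 1.16 times and its 2CG reads 1.21 times the match, beside 1.15 and 1.27 in the whole region. The run from 3 to 8 Mb had a CH share of 16.7% over 5 windows. The runs from 71 to 78, 83 to 88 and 90 to 96 Mb, with 7, 5 and 6 windows, had CH shares of 12.8%, 13.9% and 14.2%. These 3 runs also had high read ratios, with medians of 1.28, 1.31 and 1.2003, and both-strand excesses of 8.07, 8.09 and 5.70 points. Single windows with the highest CH shares were 19 to 20 Mb, 39 to 40 Mb with 28.4% (360 CH sites against 83) and 43 to 44 Mb with 27.8%.

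Near the ends of these runs the CH share changed within short distances. Edges were placed, to 100 kb, where a single change in the CH share gave the highest binomial likelihood within 1 Mb of the run's end. The position was thus chosen for the difference, and the values are a description. An edge could fall inside the first or last window of a run, so its outer side could hold part of that CH-rich window. Over the 500 kb on either side of 33900001, the share was 5.71% before (4.51 to 7.11) and 20.4% after (18.7 to 22.3). Over the 500 kb on either side of 44500001, near the end of the same run, it was 20.1% before (18.6 to 21.6) and 7.24% after (5.83 to 8.86). At 83400001 the share went from 4.94% (4.31 to 5.63) to 17.1% (15.5 to 18.7).

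The other 6 edges were of both kinds. At 8400001 the share went from 18.2% to 4.08% and at 95700001 from 19.4% to 5.40%, each within neighbouring 500 kb. The change was smaller at 71000001, from 8.24% to 16.6%, and at 90800001, from 7.70% to 13.5%. It was smaller still at 77500001, from 14.2% to 10.2%, and at 87200001, from 16.1% to 10.5%. Both of these edges lay inside the last window of their run. On their outer sides, single windows of 100 kb reached CH shares of 26.4% and 21.9%. Between the adjacent 100 kb at 83400001 the share was 4.08% on the outer and 15.7% on the inner side. At 95700001 it was 25.6% on the inner and 6.05% on the outer side.

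**Figure D4:**
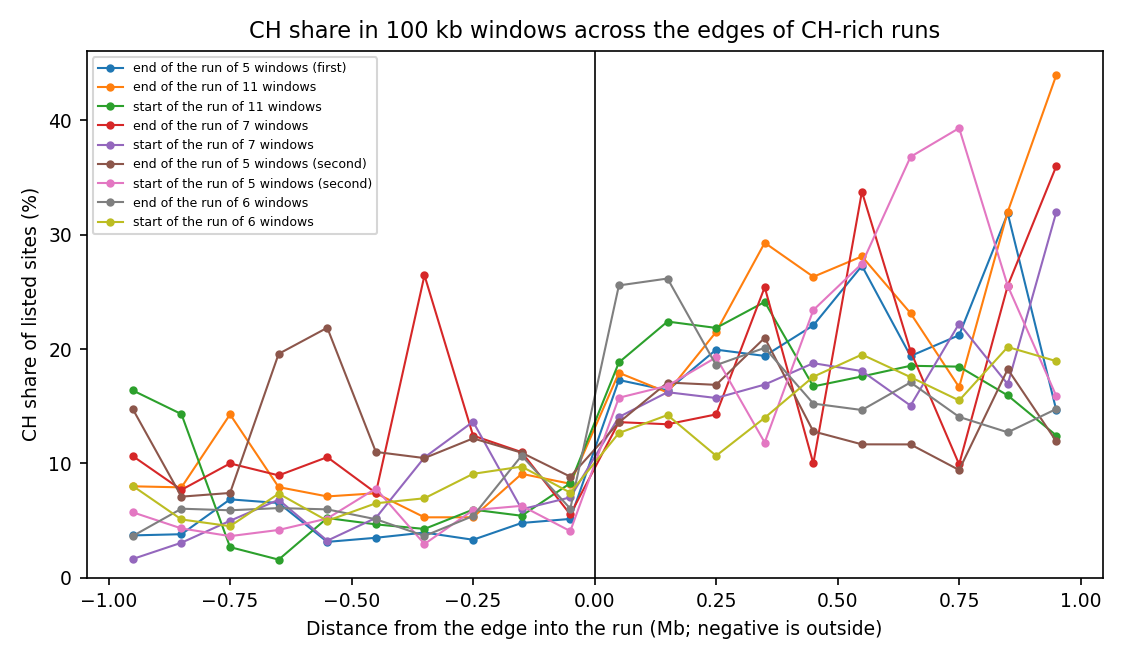
Lines give the CH share of listed sites (percent) in 100 kb windows across the 9 placed edges of the 5 runs of at least 3 CH-rich windows, by distance in Mb from the edge, with the outside of the run to the left. All 9 lines step up at the edge itself, whose position was chosen for that step, and at the start of the longest run the share goes from 8.27% to 18.8% between adjacent windows.

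The CH sites of the CH-rich windows resembled those of the other windows in makeup but not in depth. The 41 CH-rich windows held 38974 CH sites, 15.4% of their listed cytosines, and the other 71 windows held 27271, or 5.597%. CA, CC and CT made up 51.6%, 14.1% and 34.3% of CH sites in CH-rich windows and 52.5%, 12.4% and 35.1% in the others. The class 1CH held 40.1% against 38.2%, and the plus strand 49.8% against 50.1%. The mean CH site carried 9.87 reads in CH-rich windows and 6.74 in the others, and 33.5% against 16.2% of CH sites had at least 10 reads. The 17 other chromosomes had the same order, with 32.8% in their CH-rich windows and 19.5% in the others. The median distance from a CH site to the nearest listed CG site was 61 bp in CH-rich and 59 bp in other windows, and 62.9% against 64.0% lay within 100 bp.

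CG sites in CH-rich windows stood slightly farther from their match. The median ratio of reads per CG site was 1.18 in CH-rich and 1.12 in other windows, and the both-strand excess was 6.09 against 2.68 points. Reads per 2CG site were close to each other, with ratios of 1.26 and 1.28. Of the 33 windows with at least 1.2 times the matched reads per CG site, 20 were CH-rich, and the remaining 71 windows held 13. The 212 CH-rich windows of the 17 other chromosomes had a similar CH share, 13.4%, with ratios of reads per CG site of 1.02 and of 2CG reads of 0.974. The median CH-rich window of those chromosomes thus had reads per CG site near its match.

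The window from 19 to 20 Mb stood apart within the region. It had 26.7 reads per CG site against 10.4 in its match, a ratio of 2.56, and 2196 CH sites against 171, a ratio of 12.8. CH sites made up 46.1% of its listed cytosines. Its 2CG sites were near their match, with a ratio of 1.06. The excess lay in its distal part. The last 200 kb, from 19800001 to 20000000, held 50638 of its 84426 reads, or 59.98%. The 100 kb before them, from 19700001, already had 31.3 reads per CG site and 378 CH sites, 52.9% of its listed cytosines. In the last 100 kb alone, 418 CG sites carried 70.4 reads each, and 1427 CH sites, 77.3% of the listed cytosines, carried 7.09 reads each. The first 100 kb of the window had 9.89 reads per CG site. The adjoining window from 20 to 21 Mb was not used because it had 133 CG sites, and these carried 35.1 reads each, beside 141 CH sites. Without the window from 19 to 20 Mb, the CH share of the CH-rich windows was 14.8%.

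The highest counts at single dyads lay partly in the same place. The plus-strand position 56206071 and the minus-strand position 56206094, both of the class 2CG, carried 1106 reads each, with nothing listed on the other strand of either dyad. Whether these are the same reads, listed at both cytosines, cannot be told from the counts. The next 3 dyads lay at 19973478, 19980129 and 19884182 (plus-strand positions), with 906, 838 and 795 reads summed over both strands, all in the last 200 kb of the window described above. By contrast, the 100 kb windows with the most reads lay elsewhere and held many sites. They began at 14900001 with 49215 reads on 2323 CG and 172 CH sites, at 111300001 with 48153 reads, and at 34900001 with 45707 reads on 1822 CG and 393 CH sites. The last of these lies in the longest CH-rich run. Its CH share was 17.7%. The files pair no gene names with these positions, and no annotation of mm9 was used here, so the regions are given by position alone.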

How the data were processed

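Genomic DNA of E14 cells was profiled in 2 AbaSI libraries. The submitters' processing notes name CASAVA 1.8.2, Bowtie and the mm9 build. The authors deposited 1 unscaled read count for each cytosine, with both libraries in 1 column. Alignment parameters, read filters, the joining of the libraries, the listing minimum, the rule assigning reads to cytosines and the meaning of the class codes are stated in no source used here. An unlisted cytosine is not a measured 0. The depth is 176006227 reads over 13025343 cytosines, of which 11362241 reads lie in the region. If a read can be listed at more than 1 cytosine, these sums count it more than once.

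Positions were converted to 1-based coordinates. A window was compared with the median of the 20 windows of the 17 autosomes nearest in listed CG sites, and windows with under 500 CG sites, or under 50 sites of the class 2CG for its reads, were left out. Fold limits were 1.2 for reads and 2 for CH sites, and 5 percentage points for the both-strand share. The functions were tested on simulated data. Alternatives changed the minimum count, the top 0.1% of sites, window size, matching, class weights and thresholds.

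Named regions were all 5 Mb steps, the 1 Mb windows with extreme values of each measure (3 or 5 per rule), those on either side of the region's distal limit, the 3 windows of 100 kb and the 5 dyads with the most reads. The region, its measures and these rules were chosen with earlier results of these data known. Runs of CH-rich windows, their edges, the density bands and the stretches of windows named beyond this rule were chosen after their values were seen. No gene was named and no sequence was used, since no reference of mm9 was used here. Python 3.11.15, numpy 2.4.6, pandas 2.3.3, scipy 1.17.1 and matplotlib 3.10.9 were used.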

Additional observations from a re-analysis of the deposited data

How the results depend on the processing

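Of 79 alternatives over 6 results, 50 left the value within the SD of the 17 chromosome medians (counts within 1.5 times), 29 moved it and 0 reversed it. A count of windows has no direction to reverse. Counts were compared as such, although the number of windows differed between settings, so a moved count need not mean a changed share. The ratio of reads per CG site (1.15) was 1.13 at a minimum of 5 reads, without the top 0.1% of sites, in 500 kb windows and without 2CG sites. It was 1.12 at a minimum of 10 reads and without CH-rich windows, 1.199 in 5 Mb windows, 1.2013 in fully used 5 Mb windows, 1.1 for window medians and 1.14 with 2CG sites weighted 0.5. The 2CG ratio (1.27) was 1.24 at a minimum of 10 reads, 1.19 without the top sites, 1.303 in 5 Mb windows and 1.32 in fully used ones. The CH ratio (1.56) was 1.28 at a minimum of 10 reads and 1.70 in 500 kb windows. It was 1.23 without CH-rich windows, a fall fixed in advance because these windows were defined by this same ratio. The both-strand excess (4.002 points) was 5.48 in 5 Mb windows, 5.52 in fully used ones, 4.61 when matched on dyads and 2.68 without CH-rich windows. All windows of 5 Mb cover the region only up to 115 Mb. The count of windows past 1.2 (33 of 112) was 4 of 92 at a minimum of 10 reads, 11 of 23 in 5 Mb windows, 10 of 20 in fully used ones, 60 of 225 in 500 kb windows, 76 at a fold of 1.1, 1 at a fold of 1.5 and 13 of 71 without CH-rich windows. The count with 2 times the CH sites (41) was 62 at a fold of 1.5. No share of the other chromosomes' windows is given at these other settings, so these counts cannot be set against a background. Leaving out each of the 17 chromosomes in turn gave 1.14 to 1.15, 1.26 to 1.27, 1.52 to 1.59, 3.84 to 4.14 points and 32 to 34 windows. A lower fold can only raise a count of windows and a higher fold can only lower it. Apart from these shifts with the fold and the fall of the CH ratio without CH-rich windows, the cause of the shifts was not tested. The alternatives on CH-rich windows, on fully used 5 Mb windows, on the count of CH sites and without the window from 19 to 20 Mb were chosen after seeing the data. No paired analysis was possible because the table pools the 2 libraries, and for the same reason no library could be left out. Depth limits sparse windows most, where the both-strand share was known to 3.66 points at worst.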
